A study of Homo sapiens with 8 samples.

Results

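The 97 potassium channel genes examined here were the rows of the MP38 count table whose symbol starts with KCN, one or more further letters and a number, out of 35238 rows in all. Host transcripts, antisense rows and intronic rows were to be left out, and 0 such rows had matched. MP38 is a BAP1-mutant cell line grown from a human uveal melanoma, a cancer of pigment cells of the eye. The cells were grown for 24 h with 0.1% DMSO as the control, with 40 nM romidepsin, with 40 nM quisinostat or with 1200 nM mivebresib, and all groups carried the 0.1% DMSO in which the drugs were given. Each group had 2 libraries from separately treated wells of this single line, so that p-values measure the spread between wells and not between tumours. Romidepsin, a cyclic depsipeptide, and quisinostat, a hydroxamate, inhibit histone deacetylases (HDACs), the enzymes that remove acetyl groups from histones. Mivebresib inhibits BET proteins, which bind acetylated histones.

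Potassium channels let potassium leave or enter the cell along its gradient and so set the resting voltage and the shape and frequency of electrical signals. Voltage-gated channels open on depolarization, ion-activated channels respond to intracellular calcium or sodium, inward rectifiers pass current best near the resting potential, and two-pore-domain channels carry the background leak. Most are best known from neurons, muscle and secretory cells, and accessory subunits alter the gating and the surface level of the pore. By these roles the 97 genes comprised 40 voltage-gated pore genes, 13 voltage-gated accessory genes, 13 ion-activated genes, 16 inward rectifier genes and 15 two-pore-domain genes.

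Library totals ran from 28483235 to 29359024 counts. The control pair differed most between its libraries, with a chi-square per degree of freedom of 58.1 over genes against 9.52 to 9.79 in the drug pairs. The pigment cell markers fit the label, with MITF at 9899 and 9566 counts, PMEL at 11869 and 16120 and TYRP1 at 84245 and 112687 in the control libraries, while DCT, another of the 7 markers, had 4 and 1. Of the markers of other cells, CDH5 of endothelium, CD3E of T cells and RLBP1 of retinal pigment epithelium were at 0 in all libraries. Other markers of those lists were not: the control libraries held 281 and 340 counts of BEST1 (retinal pigment epithelium), 1858 and 2272 of CD68 (blood), 354 and 555 of PDGFRA (fibroblasts) and 2 and 5 of PECAM1 (endothelium). A gene was tested where its counts passed a filter by group, and it is said to have risen or fallen where the adjusted p of the edgeR quasi-likelihood test, over 15085 tested genes, was below 0.05. It is called where the log2 fold change (FC) was also beyond 1.5 in either direction.

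Of the 97 genes, 66 passed the filter, 18 had no more than 3 counts in any library and 3 of these (KCNE5, KCNK18 and KCNT2) were at 0 throughout. The filter was passed by 30 voltage-gated pore genes, 9 accessory genes, 8 ion-activated genes, 8 inward rectifier genes and 11 two-pore-domain genes. Of the 66 genes, 15 were over the filter's count in both libraries of at most 1 group. For those over it in 1 group, a difference between groups was part of the condition for being tested. KCNA1, KCNB2 and KCNH6 were among these, each over it in both libraries with quisinostat alone. Their calls with quisinostat are therefore not independent of the filter. Others, such as KCNAB3 and KCNG4, were over the filter's count in both libraries of 0 groups and passed on single libraries of different groups.

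The promoters of 5 genes that the results below turn on are shown as the 250 bases before the transcript start, 5′ to 3′ on the gene's strand, from RefSeq on GRCh38.p14. KCNC1 and KCNK1 were called higher with all 3 drugs, KCNK3 and KCNH6 were the tested genes that held the left part of RE1, a neuronal silencer element, and KCNJ13 was called lower with mivebresib. Capitals mark matches on either strand to GGGCGG (the GC box), TATAAA (the TATA box), and to TTCAGCACC and GGACAGC, the left and right parts of RE1, which is bound by the neuronal repressor REST. CACGTG and TGACGTCA, also searched, had no match in these 5 promoters.
KCNC1 (chr11:17734531-17734780, plus strand): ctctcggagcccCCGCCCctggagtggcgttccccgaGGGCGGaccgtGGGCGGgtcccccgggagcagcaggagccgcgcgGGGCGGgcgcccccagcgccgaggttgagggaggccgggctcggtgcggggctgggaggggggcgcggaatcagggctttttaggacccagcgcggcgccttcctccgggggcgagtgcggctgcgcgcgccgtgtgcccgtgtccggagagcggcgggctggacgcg
KCNK1 (chr1:233613856-233614105, plus strand): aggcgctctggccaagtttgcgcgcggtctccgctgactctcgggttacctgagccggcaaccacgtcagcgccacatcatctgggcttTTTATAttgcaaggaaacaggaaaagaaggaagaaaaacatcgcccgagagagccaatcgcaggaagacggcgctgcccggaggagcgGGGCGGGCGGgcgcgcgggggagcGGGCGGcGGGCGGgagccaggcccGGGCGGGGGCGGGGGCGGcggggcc
KCNK3 (chr2:26692472-26692721, plus strand): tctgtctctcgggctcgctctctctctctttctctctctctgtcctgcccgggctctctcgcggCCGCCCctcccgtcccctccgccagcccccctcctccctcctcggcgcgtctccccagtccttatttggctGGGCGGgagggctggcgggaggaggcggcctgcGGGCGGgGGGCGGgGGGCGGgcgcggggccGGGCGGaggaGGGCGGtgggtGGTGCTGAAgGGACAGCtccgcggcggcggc
KCNH6 (chr17:63523108-63523357, plus strand): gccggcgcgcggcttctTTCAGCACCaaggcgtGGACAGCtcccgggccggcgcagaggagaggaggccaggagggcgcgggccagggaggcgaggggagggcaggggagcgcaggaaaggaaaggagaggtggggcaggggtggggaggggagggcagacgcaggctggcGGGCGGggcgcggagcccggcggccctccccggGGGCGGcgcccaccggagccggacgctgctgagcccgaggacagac
KCNJ13 (chr2:232776566-232776815, minus strand): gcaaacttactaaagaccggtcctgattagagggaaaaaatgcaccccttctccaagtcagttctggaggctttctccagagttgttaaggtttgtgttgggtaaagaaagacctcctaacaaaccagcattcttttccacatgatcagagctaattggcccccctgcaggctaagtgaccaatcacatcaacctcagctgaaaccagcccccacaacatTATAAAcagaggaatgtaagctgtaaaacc

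KCNC1 held 4 GC boxes, KCNK1 7 GC boxes, some of them overlapping, with 1 TATA box on the opposite strand, and KCNK3 7 GC boxes. In KCNH6 both parts of RE1 lay on the same strand, and in KCNK3 on opposite strands. KCNJ13 held 1 TATA box and no GC box, and its GC content over 300 bases was 43.0% against 78.3% in KCNC1, 70.7% in KCNK1, 78.7% in KCNK3 and 78.3% in KCNH6. The searches ran over windows of 300 bases (250 before and 50 after the start), which were at hand for 71 of the 97 genes.

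Of the 71 windows, 60.6% held GGGCGG against 45% of all 35116 promoters in the RefSeq table. TTCAGCACC stood in 2 of the 18 windows of genes called higher with quisinostat, in 0 of the 28 windows of the other tested genes and in 0.376% of all promoters. GGACAGC stood in 6 of the 18, in 3 of the 28 and in 6.03% of all promoters. The 18 windows cover only part of the 32 genes called higher with quisinostat. KCNQ3, KCNK12 and KCNA1 were among those without a window. The median CpG observed-to-expected ratio was 0.832 in the 18 windows, 0.684 in the 28 windows, 0.366 in the 25 windows of untested genes and 0.579 over all promoters. These matches and ratios are descriptions of the letters in the windows, and binding was not measured.

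In the control cells the most abundant channel transcript per length was that of KCNAB2, a cytoplasmic beta subunit of voltage-gated channels, at 59.2 ± 4.68 TPM (transcripts scaled for gene length and library total, mean ± SD, n = 2). It was followed by KCND3, a pore subunit of fast-inactivating A-type channels, at 32.4 ± 4.34 TPM. Next came KCNH1 (ether-à-go-go) at 18.5 ± 5.67, KCNG1 (a pore subunit silent on its own) at 17.5 ± 1.48 and KCNIP3 (a calcium-binding partner of the KCND channels) at 16.6 ± 0.989 TPM, 3 levels that did not differ beyond the spread of the 2 KCNH1 libraries. The next 4 named here lay between 5.65 and 6.69 TPM, a range narrower than the SD of the first of them (1.79). They were KCNN2 of the small-conductance calcium-activated channels, the silent subunit KCNS3, and the inward rectifiers KCNJ2 and KCNJ4. The 2 control libraries themselves differed for KCNH1, at 1086 and 1608 counts.

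The same 5 genes led with romidepsin. With quisinostat the first 4 places were held by the same genes as in the control, and the small-conductance channel KCNN1 stood at the 5th place at 22.5 ± 2.72 TPM. With mivebresib KCNG1 stood at the 2nd place at 26 ± 0.809 TPM, and KCNH1 at the 6th at 7.11 ± 0.619.

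Quisinostat raised more channel genes than romidepsin did. Mivebresib raised some and lowered others, and its share called lower was near that of all tested genes. Except where library total alone is stated, CPM are counts scaled to a library's total over the tested genes times its TMM factor. The summed level of all 97 genes was 436 ± 11.4 CPM (mean ± SD, n = 2) in the control. It was 666 ± 4.88 with quisinostat, 511 ± 9.69 with romidepsin and 317 ± 9.9 with mivebresib. Its values in the 4 groups did not overlap. Fewer cells with a transcript and less of it per cell cannot be told apart in these bulk libraries. KCNAB2 and a few other genes of high level make up most of this sum, and the classes are therefore given apart. The two-pore-domain genes summed to 8.28 ± 0.434 CPM in the control, 52.2 ± 0.794 with quisinostat, 18.6 ± 0.838 with romidepsin and 11.1 ± 0.901 with mivebresib. The ion-activated genes summed to 22 ± 3.15 CPM without drug and 58.5 ± 1.31 with quisinostat, and the inward rectifiers went from 15.8 ± 2.45 without drug to 29.7 ± 2.05 with it. The accessory sums were alike on this scale in control (193 ± 16.0 CPM) and quisinostat cells (194 ± 3.57), and lower in mivebresib cells (104 ± 5.9). The likeness depends on the TMM factors, which were 0.962 and 0.939 in the control libraries and 1.09 and 1.09 in the quisinostat libraries.

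**Figure D1:**
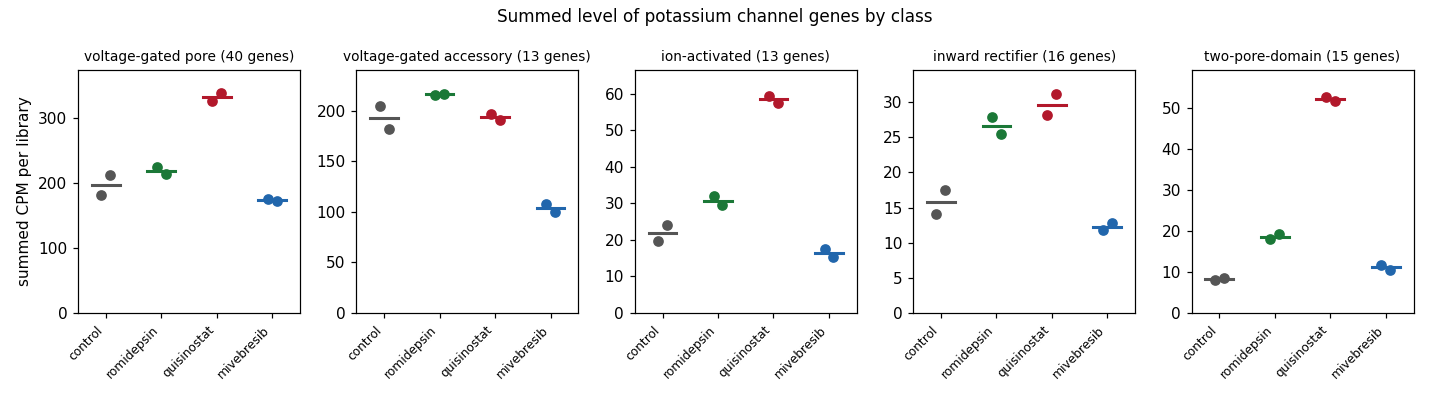
Summed CPM of the potassium channel genes of each class in each library, with 1 point per library and a line at the mean of the 2 libraries of a group; the vertical axes start at 0 and differ between panels. The two-pore-domain sum was highest with quisinostat at 52.2 CPM against 8.28 in the control, and the accessory sum lowest with mivebresib at 104 CPM.

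With quisinostat 32 of the 66 tested genes were called higher and 0 lower, where 11.2% of all tested genes were called higher and 1.03% lower. With romidepsin 19 were called higher and 0 lower, against 3.77% and 0.312% of all tested genes. With mivebresib 8 were called higher (12.1%) and 3 lower (4.55%), against 3.96% and 4.36% of all tested genes. The 3 comparisons share the same control libraries. The median log2 FC of the 66 genes was 1.36 with quisinostat, 0.62 with romidepsin and 0.13 with mivebresib, beside medians over all tested genes of -0.0036, -0.012 and 0.0067. The mivebresib median was -0.00334 without the second mivebresib library, 0.0 without the first control library and 0.21 without the second, so that its direction rests on single libraries. With genes at 0 in a group set to their bound, the 3 medians were the same. By adjusted p alone, edgeR found 26 genes higher (15.2% of all tested) and 1 lower (KCNIP3, against 15.8%) with romidepsin, and 37 higher (28%) and 0 lower (25.1%) with quisinostat. At an unadjusted p below 0.05, 3 genes were lower with romidepsin and 1 with quisinostat, and DESeq2 and limma-voom also called 0 lower with either.

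The filter by group favours genes that are high in 1 group. A minimum mean over all 8 libraries can also be passed through 1 high group, so it does not remove that selection. It left 38 members with a mean of at least 1 CPM, here by library total alone. KCNA2, at 0.216 CPM in the control and 3.76 with quisinostat when scaled with the TMM factors, was among them. Of the 38, 20 were called higher with quisinostat (background 7.8%), 14 with romidepsin (2.93%) and 7 with mivebresib (3.09%). With mivebresib 2 were called lower (3.85%). Between the HDAC inhibitors, 12 of the 38 were called higher with quisinostat (3.22%). None of the 38 was called lower with quisinostat (0.847%) or romidepsin (0.194%), nor lower with quisinostat than with romidepsin (0.14%). Of all 66 tested genes, 49 had their highest group mean with quisinostat, 10 with romidepsin, 6 with mivebresib and 1 in the control, and the shares over all tested genes were 32%, 13.3%, 29.4% and 25.3%. At least 10 counts in both libraries of a group were seen for 38 of the 97 genes in the control, 51 with romidepsin, 59 with quisinostat and 41 with mivebresib, beside 13329, 13848, 14561 and 13516 of all 35238 rows.

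**Figure D2:**
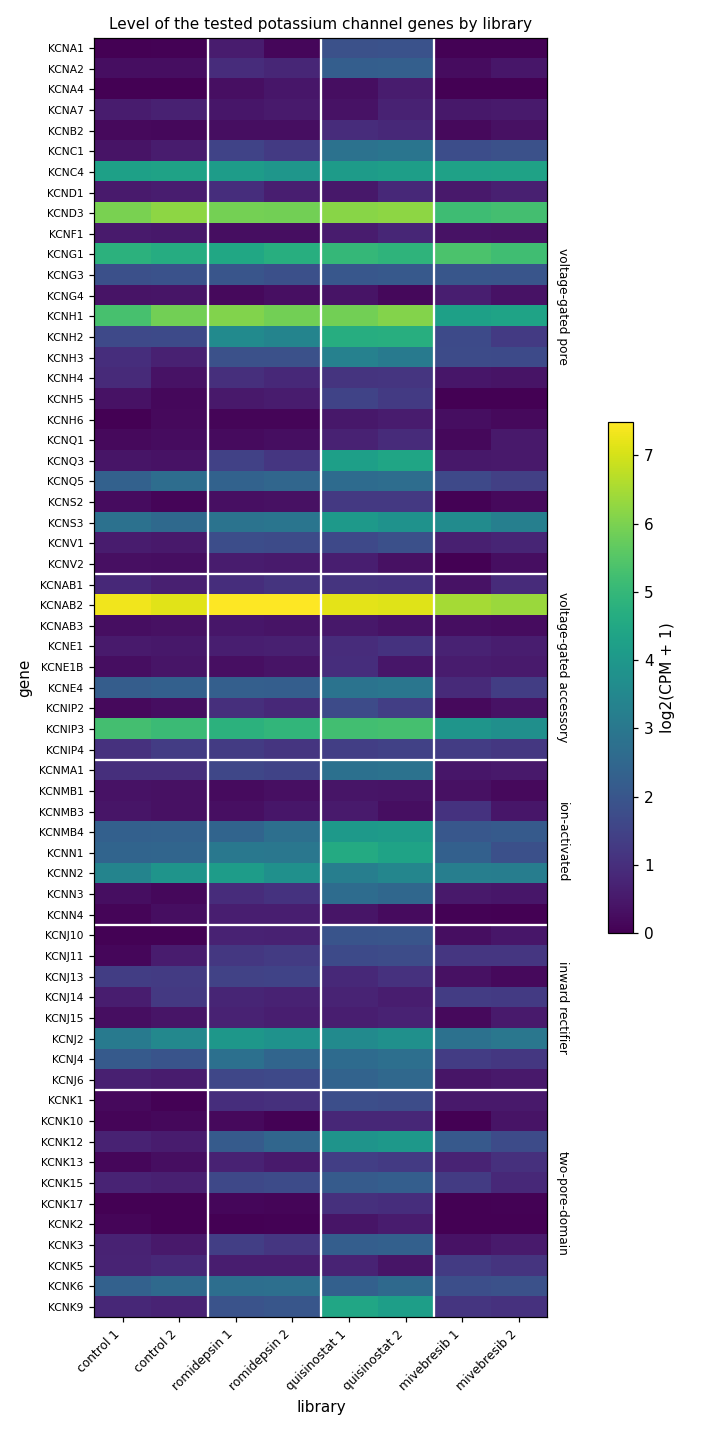
Level of 62 tested potassium channel genes (rows, by class) in the 8 libraries (columns) on the log2(CPM + 1) scale. KCNAB2 is the brightest row in every library, and rows such as KCNQ3, KCNK9 and KCNK12 brighten in the quisinostat columns.

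Among the voltage-gated pore genes, quisinostat raised KCNQ3 by a wide margin. KCNQ3, a subunit of the channels that carry the slow M-current of neurons, had 10 and 8 counts in the control, 51 and 37 with romidepsin, 564 and 638 with quisinostat and 11 and 12 with mivebresib. The quisinostat libraries stood far above all others and the mivebresib libraries beside the control. KCNQ3 rose with quisinostat (log2 FC 5.86 ± 0.22 SE, adjusted p = 8.42e-07) and less with romidepsin (log2 FC 2.21 ± 0.29 SE, adjusted p = 0.000935). KCNQ1, known from heart and epithelia, was called higher with quisinostat at low counts (20 and 28 against 4 and 5 in the control), a call that was lost without the second quisinostat library (log2 FC 1.93, adjusted p = 0.0788). KCNQ5 fell with mivebresib by 1.31 (log2), under the threshold for a call.

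The Shaker-type genes KCNA1 and KCNA2, which make axonal channels, were near the floor in the control at 0 and 1 and 6 and 6 counts. Both stood apart with quisinostat, at 82 and 84 and 117 and 120 counts, while mivebresib gave 1 and 1 and 5 and 10. KCNA2 was called higher with quisinostat (log2 FC 4.10 ± 0.32 SE, adjusted p = 1.86e-05) and with romidepsin (log2 FC 1.94 ± 0.38 SE, adjusted p = 0.006, counts 27 and 22). For KCNA1, with 1 control count in all, the quisinostat ratio was 146.5 with an exact 95% counting interval of 25.9 to 5821, and the romidepsin ratio 16.25 (2.55 to 679) from counts of 14 and 3. KCNA1 was over the filter's count in both libraries with quisinostat alone. The romidepsin call for KCNA1 was lost in 6 of the 8 fits that left out a library, and without the first romidepsin library its log2 FC was 2.27 (adjusted p = 0.254). KCNA4 had 0 counts in the control and mivebresib libraries and 7 and 15 with quisinostat, at least 6.47-fold higher than a floor of 3 counts over the control group. With romidepsin it had 7 and 11, at least 5.74-fold higher, a call lost without either romidepsin library (log2 FC 6.47 and 5.83, adjusted p = 0.0563 and 0.0835).

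KCNC1, whose channels allow fast spiking, rose with every drug. It had 9 and 13 counts in the control, 53 and 41 with romidepsin, 191 and 207 with quisinostat and 66 and 73 with mivebresib. All 3 drug groups stood above the control without overlap, and KCNC1 was called higher with each (log2 FC 3.98 ± 0.24 SE, adjusted p = 5.91e-06 with quisinostat, log2 FC 2.66 ± 0.27 SE, adjusted p = 9.91e-05 with mivebresib, log2 FC 2.02 ± 0.28 SE, adjusted p = 0.00135 with romidepsin). Its relative KCNC4 did not pass the test with any drug, at 510 and 517 counts in the control, 517 and 549 with quisinostat and 504 and 526 with mivebresib.

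Of the ether-à-go-go group, KCNH2 (hERG, the channel of cardiac repolarization) had 61 and 61 counts in the control, 319 and 276 with romidepsin, 774 and 780 with quisinostat and 61 and 39 with mivebresib. The HDAC inhibitor libraries stood apart from the control, and the mivebresib libraries did not. KCNH2 was called higher with quisinostat (log2 FC 3.49 ± 0.17 SE, adjusted p = 2.62e-06) and romidepsin (log2 FC 2.22 ± 0.18 SE, adjusted p = 0.000124), while mivebresib gave -0.27 ± 0.22 (adjusted p = 0.343). KCNH3, of the related ELK channels, was called higher with quisinostat (3.34 ± 0.22) and romidepsin (1.70 ± 0.24, but 1.40 without the second control library). It rose with mivebresib by 1.47 ± 0.24, just under the call threshold. KCNH6, of the ERG channels, was called higher with quisinostat from 0 and 4 to 13 and 15 counts, a call lost without the first control library (log2 FC 1.57) or either quisinostat library (2.67 and 2.43), and also with DESeq2 and in the fit of only the 4 libraries compared. KCNH6 too was over the filter's count in both libraries with quisinostat alone.

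KCNH1 and KCNH5, the EAG channels proper, fell with mivebresib. KCNH1 had 1086 and 1608 counts in the control, 1917 and 1702 with romidepsin, 1846 and 2137 with quisinostat and 496 and 536 with mivebresib. The mivebresib libraries were below all others, and the log2 FC was -1.38 ± 0.19 (adjusted p = 0.00048), under the call threshold. KCNH5 had 8 and 3 counts in the control, 58 and 45 with quisinostat and 0 in both mivebresib libraries, at least 3.64-fold lower than the control with a floor of 3 counts over the group. It was called lower with mivebresib (adjusted p = 0.0132), but not without the first control library (adjusted p = 0.0504) or the second mivebresib library (adjusted p = 0.0532). Quisinostat raised it (log2 FC 3.02 ± 0.44 SE, adjusted p = 0.000871).

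Among the other pore genes, KCNB2, of the delayed rectifiers, was called higher with quisinostat (29 and 26 counts against 4 and 3, log2 FC 2.75 ± 0.43 SE, adjusted p = 0.000816). It was over the filter's count in both libraries with quisinostat alone, so being high there was part of the condition for its test. The silent subunits, which form no channel alone but change KCNB channels, were uneven. KCNS2 was called higher with quisinostat (3.40 ± 0.47, 43 and 43 counts against 5 and 2), and KCNV1 with both HDAC inhibitors (71 and 66 and 67 and 81 counts against 14 and 12). KCNS3 rose with quisinostat (1.39 ± 0.17) and mivebresib (0.86 ± 0.17), and KCNG1 with mivebresib (0.58 ± 0.11), all under the call threshold. KCND3 fell with mivebresib from 1758 and 2028 to 951 and 1025 counts (-0.93 ± 0.098, adjusted p = 0.000127), again under the threshold. In all, 15 of the 30 tested pore genes were called higher with quisinostat, 8 with romidepsin and 3 with mivebresib, and 1 was called lower with mivebresib. The shares over all tested genes were 11.2%, 3.77% and 3.96% higher in that order, and 4.36% lower with mivebresib. The median log2 FC of the 30 pore genes was 1.58, 0.61 and 0.16 in that order of drugs.

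**Figure D3:**
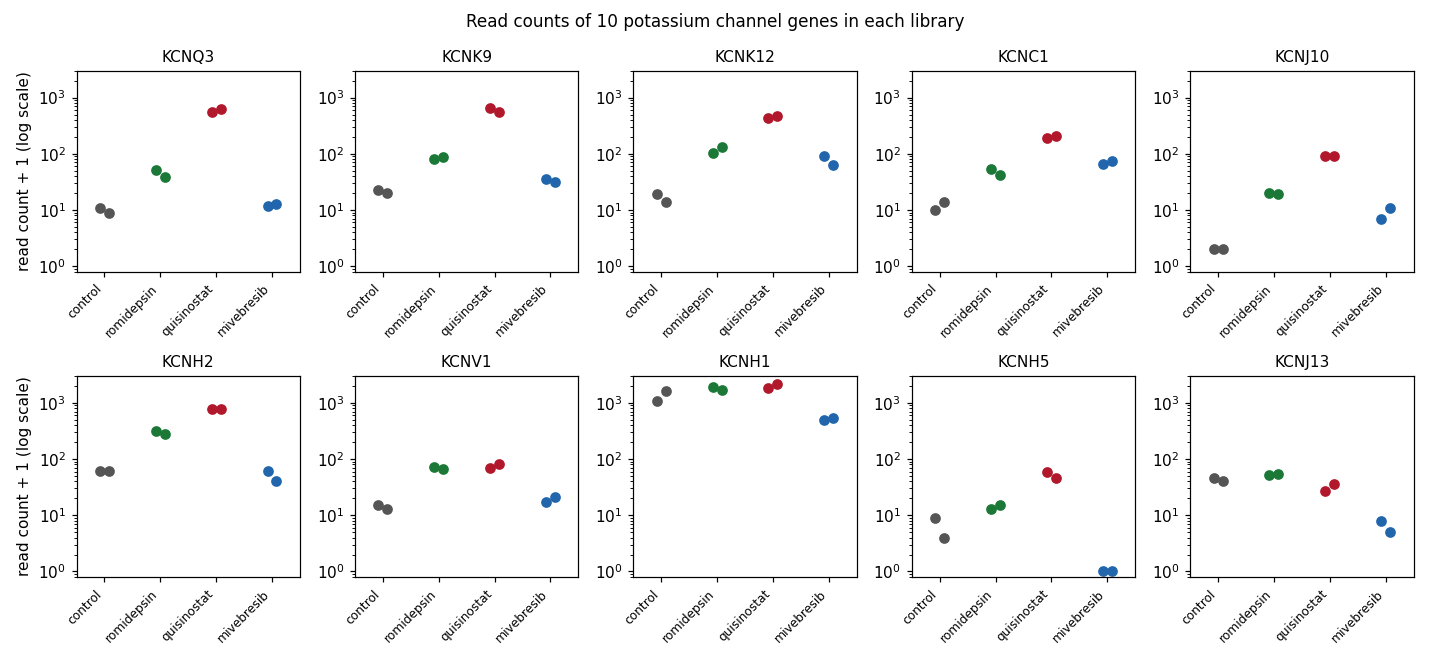
Read counts plus 1 on a log axis for 10 potassium channel genes in the 4 groups, 1 point per library. KCNQ3, KCNK9 and KCNH2 are highest with quisinostat, KCNV1 is alike with both HDAC inhibitors, and KCNH5 stands at 0 counts in both mivebresib libraries.

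Of the 9 tested accessory genes, KCNIP2 was the 1 called with the HDAC inhibitors. With quisinostat this 1 of 9 was near the 11.2% of all tested genes called higher. With romidepsin 3.77% of all tested genes were called higher. KCNIP2 binds KCND channels and is best known from the heart. It had 4 and 6 counts in the control, 29 and 24 with romidepsin, 73 and 51 with quisinostat and 4 and 8 with mivebresib. The HDAC inhibitor libraries lay above all others, with a log2 FC of 3.42 ± 0.41 with quisinostat and 2.31 ± 0.45 with romidepsin. Its relative KCNIP3 had 1039 and 911 counts in the control, 1162 and 1182 with quisinostat and 381 and 344 with mivebresib. It fell with mivebresib (-1.41 ± 0.10, adjusted p = 1.65e-05), close to the call threshold. With romidepsin its adjusted p was 0.0471 for a log2 FC of -0.29 and was over 0.05 in 13 of the 15 alternative fits, DESeq2 among them. KCNAB2 fell with mivebresib from 4539 and 3871 to 2444 and 2265 counts (-0.82 ± 0.091, adjusted p = 0.000165) and gave -0.08 ± 0.09 with quisinostat (adjusted p = 0.478).

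KCNE4, a single-span subunit that inhibits KCNQ1 channels, rose with quisinostat and fell with mivebresib. It had 103 and 108 counts in the control, 112 and 109 with romidepsin, 196 and 209 with quisinostat and 23 and 44 with mivebresib. The mivebresib libraries were below all others and the quisinostat libraries above them. KCNE4 was called lower with mivebresib (log2 FC -1.64 ± 0.25 SE, adjusted p = 0.000862), with -1.26 without the first mivebresib library, and rose with quisinostat under the threshold (log2 FC 0.76 ± 0.20 SE, adjusted p = 0.0127), a rise that missed the adjusted p without the second quisinostat library. The median log2 FC of the 9 accessory genes was 0.72 with quisinostat, 0.24 with romidepsin and -0.22 with mivebresib.

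Of the ion-activated genes, KCNMA1, the pore of the large-conductance calcium-activated (BK) channel, had 29 and 28 counts in the control, 58 and 53 with romidepsin, 184 and 189 with quisinostat and 10 and 12 with mivebresib. The 4 groups did not overlap. It was called higher with quisinostat (log2 FC 2.53 ± 0.18 SE, adjusted p = 1.19e-05), rose with romidepsin (0.89 ± 0.20) and fell with mivebresib (log2 FC -1.35 ± 0.26 SE, adjusted p = 0.00302), the latter 2 under the call threshold and the romidepsin rise lost without the first romidepsin library. KCNMB4, the BK beta subunit of neurons, had 111 and 110 counts in the control and 485 and 513 with quisinostat (log2 FC 1.99 ± 0.15 SE, adjusted p = 1.43e-05), while romidepsin (0.34 ± 0.16) and mivebresib (-0.29 ± 0.17) did not pass the test.

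Of the small-conductance genes, KCNN3 had 6 and 3 counts in the control, 27 and 33 with romidepsin, 168 and 148 with quisinostat and 12 and 10 with mivebresib. Each drug group lay above the control, and the calls with quisinostat (log2 FC 4.92 ± 0.31 SE, adjusted p = 6.39e-06) and romidepsin (log2 FC 2.64 ± 0.38 SE, adjusted p = 0.00145) did not depend on a single library. KCNN1 went from 121 and 121 counts to 723 and 607 with quisinostat (log2 FC 2.28 ± 0.18 SE, adjusted p = 1.94e-05). KCNN2 did not pass the test with any drug (268 and 375 counts in the control, 262 and 310 with quisinostat). KCNN4, the intermediate-conductance channel of blood and epithelial cells, was the 1 gene called with romidepsin and not with quisinostat, at 16 and 16 counts against 2 and 6 (log2 FC 1.90 ± 0.62 SE, adjusted p = 0.0472). That call was lost in 7 of the 8 fits that left out a library, with log2 FCs of 1.33 to 1.93, and with all libraries kept in the replicate block fit and the fit of only the 4 libraries compared. The 2 HDAC inhibitors did not differ detectably for it (-1.10, 95% interval -2.34 to 0.13). Of the 8 tested ion-activated genes, 4 were called higher with quisinostat and 2 with romidepsin, and their median log2 FC was 1.40 with quisinostat, 0.51 with romidepsin and -0.42 with mivebresib. The shares of all tested genes called higher were 11.2% with quisinostat and 3.77% with romidepsin. With mivebresib KCNN3 rose under the call threshold (log2 FC 1.28 ± 0.45 SE, adjusted p = 0.0458), which neither DESeq2 nor limma-voom found and which was lost without 7 of the 8 libraries, with a log2 FC of 0.89 without the second control library.

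Of the inward rectifiers, 3 of 8 tested genes were called higher with each HDAC inhibitor, 2 were called higher and 1 lower with mivebresib, and the median log2 FC was 0.95 with quisinostat, 0.93 with romidepsin and -0.13 with mivebresib. The shares over all tested genes were 11.2% higher with quisinostat, 3.77% with romidepsin and 3.96% with mivebresib, and 4.36% lower with mivebresib. KCNJ10, which buffers potassium in glia, had 1 and 1 counts in the control, 19 and 18 with romidepsin, 89 and 92 with quisinostat and 6 and 10 with mivebresib. All drug libraries were above the control, where 2 counts in all gave ratios of 79.9 (exact 95% counting interval 21.8 to 664.5) with quisinostat, 17.7 (4.56 to 151.5) with romidepsin and 8.07 (1.9 to 72.3) with mivebresib. KCNJ11, the pore of the ATP-sensitive channel of beta cells, had 3 and 13 counts in the control and 38 and 42, 69 and 73 and 35 and 35 with romidepsin, quisinostat and mivebresib. The control libraries differed several-fold from each other and still lay below every drug library. KCNJ11 was called higher with all 3 drugs (2.24 ± 0.45, 2.95 ± 0.42 and 2.12 ± 0.46), but with mivebresib the log2 FC was 1.41 without the first control library. KCNJ6, a G-protein-gated rectifier, was called higher with quisinostat (log2 FC 3.09 ± 0.23 SE, adjusted p = 1.46e-05) and romidepsin (log2 FC 1.99 ± 0.25 SE, adjusted p = 0.00075) and had 9 and 12 counts with mivebresib against 16 and 13 in the control.

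KCNJ13, the rectifier of the retinal pigment epithelium, was low with mivebresib. It had 45 and 40 counts in the control, 52 and 53 with romidepsin, 26 and 35 with quisinostat and 7 and 4 with mivebresib. The mivebresib libraries were far below the rest, and KCNJ13 was called lower with mivebresib (log2 FC -2.91 ± 0.36 SE, adjusted p = 0.000287). Its exons overlap those of GIGYF2 on the opposite strand by 722 bases, and GIGYF2 had a log2 FC of 0.26 with mivebresib. Of the rectifiers that hold the resting potential, KCNJ4 fell with mivebresib (-1.12 ± 0.21) and rose with both HDAC inhibitors (0.72 ± 0.18 and 0.79 ± 0.18). KCNJ2 rose with romidepsin (0.67 ± 0.16), and quisinostat gave 0.42 ± 0.16 (adjusted p = 0.0577). Without the first romidepsin library the romidepsin rises of KCNJ4 and KCNJ2 missed the adjusted p, and that of KCNJ4 also did in the fit of only the 4 libraries compared.

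**Figure D4:**
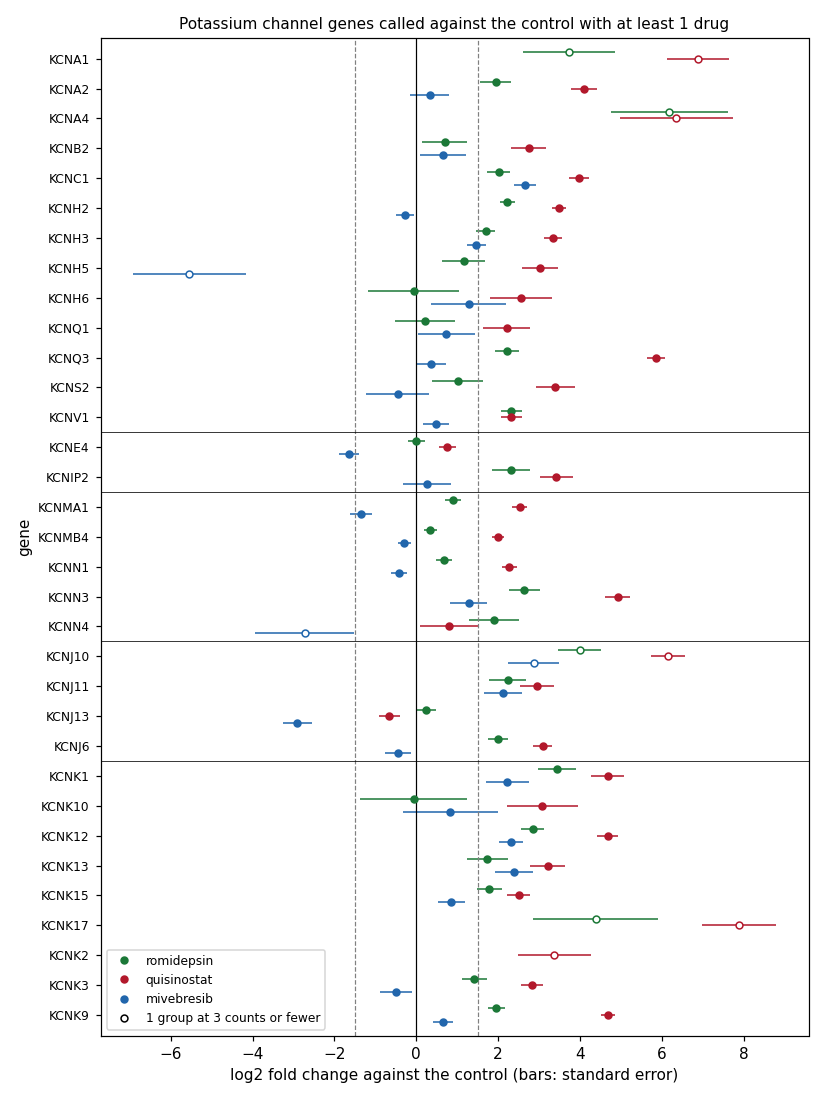
Log2 fold change against the control for 33 potassium channel genes called with at least 1 drug, with bars of 1 standard error and dashed lines at 1.5 and -1.5. Open symbols mark values where 1 of the 2 groups held 3 counts or fewer over both libraries, whose size depends on the prior count, and points where both groups did are left out.

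Of the 11 tested two-pore-domain genes, 9 were called higher with quisinostat, 5 with romidepsin and 3 with mivebresib. The shares of all tested genes called higher were 11.2%, 3.77% and 3.96% in that order. The median log2 FC of the 11 was 3.21, 1.74 and 0.84, and the other 4 genes of the class were too low to test. For KCNK9, an acid-sensitive TASK channel, the libraries held 22 and 19 counts in the control, 80 and 87 with romidepsin, 650 and 550 with quisinostat and 34 and 30 with mivebresib. The quisinostat libraries stood far above the rest, and all drug libraries above the control. KCNK9 was called higher with quisinostat (log2 FC 4.68 ± 0.17 SE, adjusted p = 8.42e-07) and romidepsin (log2 FC 1.96 ± 0.20 SE, adjusted p = 0.000334), and gave 0.65 ± 0.24 with mivebresib (adjusted p = 0.0503). Its relative KCNK3 had 18 and 12 counts in the control, 47 and 37 with romidepsin, 118 and 124 with quisinostat and 8 and 13 with mivebresib. It was called higher with quisinostat (log2 FC 2.82 ± 0.27 SE, adjusted p = 6.33e-05) and rose under the call threshold with romidepsin (log2 FC 1.41 ± 0.30 SE, adjusted p = 0.00904), a rise lost without the first romidepsin library. KCNK15, the third gene of that group, whose protein has not been shown to pass current alone, was called higher with quisinostat (2.50 ± 0.28) and romidepsin (1.79 ± 0.30). It shares 506 exonic bases with RIMS4 on the opposite strand, which had log2 FCs of 3.03 with quisinostat and 1.85 with romidepsin, and whether the counting kept strand is not given in the sources used here.

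The halothane-inhibited THIK genes KCNK12 and KCNK13 and the weak rectifier KCNK1 were called higher with all 3 drugs. KCNK12 had 18 and 13 counts in the control, 101 and 133 with romidepsin, 437 and 470 with quisinostat and 90 and 63 with mivebresib. Every drug library was above the control, with log2 FCs of 2.84 ± 0.28, 4.68 ± 0.26 and 2.31 ± 0.30. KCNK13 had 3 and 6 counts in the control and 19 and 13, 52 and 45 and 19 and 29 with romidepsin, quisinostat and mivebresib. Its romidepsin call (log2 FC 1.74 ± 0.50 SE, adjusted p = 0.0311) was lost in 5 of the 8 fits with a library left out, with log2 FCs of 1.33 to 1.98, and in the fit of only the 4 libraries compared, and its quisinostat (3.21 ± 0.43) and mivebresib (2.39 ± 0.47) calls in none. KCNK1 had 4 and 1 counts in the control and 28 and 31, 78 and 74 and 12 and 12 with the 3 drugs in the same order. Its log2 FC was 3.44 ± 0.45, 4.68 ± 0.40 and 2.22 ± 0.53.

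The remaining calls of this class were with quisinostat and at low counts. KCNK17, an alkaline-activated TALK channel, had 0 counts in both control libraries and 33 and 31 with quisinostat, at least 18.8-fold higher than a floor of 3 counts over the control group. The stretch-activated TREK channels KCNK2 and KCNK10 had 11 and 15 and 25 and 25 counts with quisinostat against 2 and 0 and 2 and 3 in the control. For KCNK2 the ratio was 11.5 with an exact 95% counting interval of 2.87 to 99.7, and the call was lost without the second control library (adjusted p = 0.0549) and with DESeq2, while without the second quisinostat library the gene could not be tested. The call for KCNK10 was lost without either quisinostat library (adjusted p = 0.0602 and 0.0636). KCNK6 fell with mivebresib (-0.80 ± 0.18, 68 and 73 counts against 113 and 134), and KCNK5 did not pass the test with any drug.

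Set side by side at the same dose and time, 40 nM quisinostat gave higher channel transcripts than 40 nM romidepsin for 22 of the 66 tested genes and lower for 0, where 5.41% of all tested genes were called higher and 0.179% lower. The paper reports romidepsin as the most potent compound of its viability tests, so equal molar doses compare the treatments as given. By adjusted p alone, 37 channel genes were higher with quisinostat, against 21% of all tested genes. At an unadjusted p below 0.05 3 were lower, and DESeq2 and limma-voom called 0 lower. Among genes with at least 20 counts in each HDAC inhibitor library, the 4 largest differences were those of KCNQ3 (3.65, 95% interval 3.26 to 4.04), KCNK9 (2.73, 2.40 to 3.05), KCNN3 (2.28, 1.77 to 2.79) and KCNA2 (2.15, 1.58 to 2.72), all on the log2 scale and with adjusted p of at most 0.000483. KCNC1 (1.96, 1.52 to 2.41) and KCNK12 (1.84, 1.40 to 2.28) were also called. So was KCNJ10 (2.17), whose romidepsin libraries lay just under that count. KCNH2 differed under the call threshold (1.27, 0.94 to 1.60). Of the 22 calls, 14 were kept in every fit that left out a library, and KCNF1, KCNH5, KCNH6, KCNK10, KCNK2, KCNMB4, KCNN1 and KCNQ1 lost theirs in at least 1. Those of KCNMB4 and KCNN1 went just under the log2 limit (both 1.46, without the first romidepsin and the first quisinostat library), and the other 6 missed the adjusted p without at least 1 romidepsin or quisinostat library, as KCNF1 did at 1.15 without the second quisinostat library. With all libraries kept, DESeq2 did not call KCNF1, KCNH6, KCNK2 or KCNQ1.

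KCNF1, a silent subunit, was called between the HDAC inhibitors and with no drug against the control, at 13 and 11 counts in the control, 6 and 6 with romidepsin and 15 and 24 with quisinostat, and neither DESeq2 nor limma-voom called it. For KCNV1 the difference between the HDAC inhibitors was -0.0036, with an interval of -0.47 to 0.46. The intervals for KCNH1 (-0.38 to 0.42) and KCNJ4 (-0.32 to 0.46) also lay within 0.5 on either side of 0. KCNJ2 (-0.61 to 0.11) did not pass the test either, and for KCNA4 (-1.20 to 1.55) and KCNJ11 (-0.04 to 1.46) the intervals reached 1.55 and 1.46. KCNJ13 (-0.90), KCNN2 (-0.69) and KCNAB2 (-0.32) were lower with quisinostat than with romidepsin at an adjusted p below 0.05, under the call threshold, 3 of 66 genes where 14.6% of all tested genes were lower by that rule. All 3 lost the adjusted p without the first romidepsin or either quisinostat library, KCNJ13 and KCNAB2 also without the second romidepsin library, KCNJ13 with DESeq2 and KCNAB2 with scaling by library size alone. The difference over all tested genes had a median of 0.058.

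**Figure D5:**
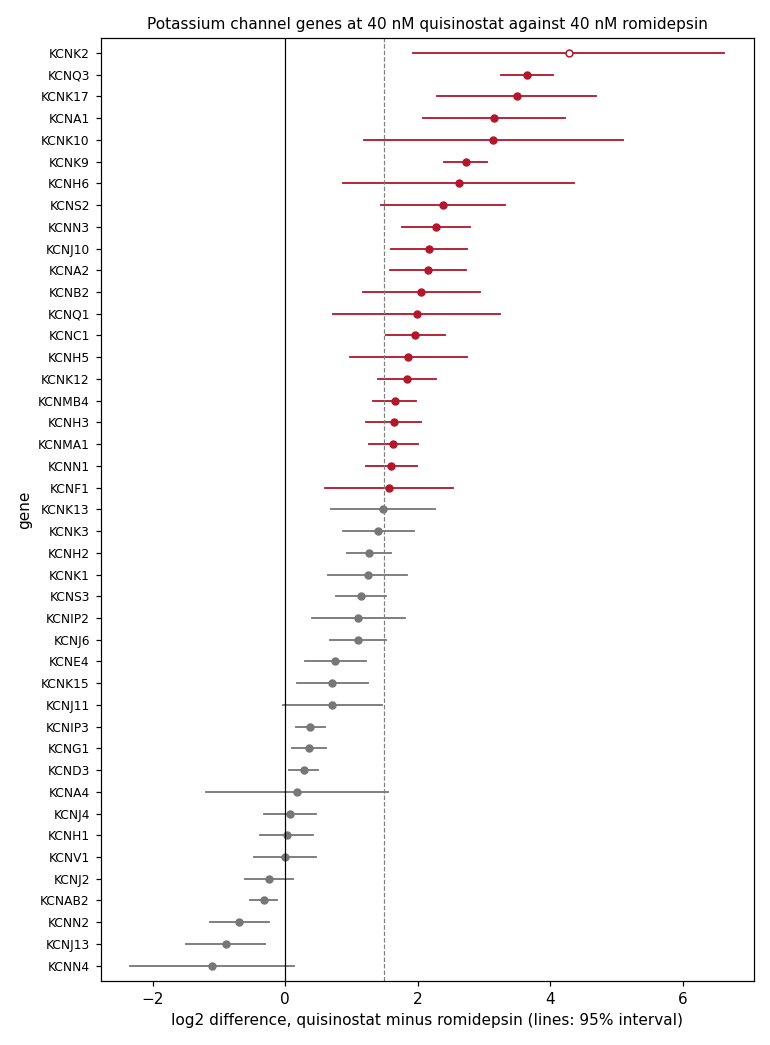
Log2 difference between 40 nM quisinostat and 40 nM romidepsin for 43 potassium channel genes, with lines for the 95% interval, red for the 21 of them called higher with quisinostat and a dashed line at 1.5. Open symbols mark genes with 3 counts or fewer over both libraries of 1 group, and KCNV1 stands at 0.

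Mivebresib was given at 1200 nM, so its values beside the HDAC inhibitors compare the treatments as given. Of the 66 tested genes, 32 were called lower with mivebresib than with quisinostat (background 12.6%) and 0 higher (1.73%), and 16 lower than with romidepsin (6.7%) and 0 higher (2.52%). By adjusted p alone, 45 were lower (31.5%) and 3 higher (26.2%) than with quisinostat, and 32 lower (25.2%) and 6 higher (23.7%) than with romidepsin. DESeq2 and limma-voom called 0 higher with mivebresib than with quisinostat or romidepsin, and 3 and 8 were higher at an unadjusted p below 0.05 by edgeR. KCNQ3 was lower with mivebresib than with quisinostat by 5.5 ± 0.21 on the log2 scale, and KCNH2 by 3.76 ± 0.18. For the genes called higher with all 3 drugs, mivebresib lay below quisinostat at an adjusted p below 0.05 for KCNC1 (0.000376), KCNJ10 (3.06e-05), KCNK1 (0.000191) and KCNK12 (2.48e-05), and not for KCNJ11 (0.0613) or KCNK13 (0.0554). Against the control, 12 of the 66 genes (18.2%) fell with mivebresib at an adjusted p below 0.05, where 24.1% of all tested genes did. Another 12 (18.2%) rose, where 22.2% did, so both shares lay under those of all tested genes.

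Markers of other cells moved with some of these groups. The summed level of 5 neuron markers was 1.2 to 1.32 CPM in the control, 4.26 to 4.75 with romidepsin, 18.1 to 19.0 with quisinostat and 1.17 to 1.40 with mivebresib, and the 4 that were tested were called higher with quisinostat, SYT1 and SNAP25 among them (log2 FC 4.24 and 3.85), with ELAVL4 at 0 to 2 counts throughout. The 5 fibroblast markers summed to 14.1 to 22 CPM in the control, 20.2 to 24.5 with romidepsin, 34.6 to 35.4 with quisinostat and 8.16 to 10.6 with mivebresib, with DCN and COL3A1 at 5 counts or fewer in every library and LUM at 0 in all libraries but 1. Pigment cell markers summed to 4193 to 5452 CPM in the control, 4739 to 5027 with romidepsin, 3563 to 4108 with quisinostat and 3698 to 3776 with mivebresib, where 3 of the 6 tested fell with quisinostat (MITF, MLANA and SOX10, with MITF at -1.39 ± 0.078) and 4 with mivebresib (the same 3 and PMEL, with MITF at -1.47 ± 0.078 and SOX10, the 1 called, at -1.93 ± 0.097). With quisinostat PMEL (-0.01), TYRP1 (-0.25) and TYR (0.31) did not pass the test. Of all tested genes, 11.2% were called higher and 25.1% fell with quisinostat, and 24.1% fell with mivebresib. Retinal pigment epithelium markers summed to 10.4 to 12.9 CPM in the control, 20 to 20.6, 14.6 to 15.6 and 6.25 to 7.8 with romidepsin, quisinostat and mivebresib, endothelial markers to at most 0.764 CPM and blood markers, nearly all CD68, to 61.1 to 83.1 CPM. Their part in the channel results was not tested.

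The transcripts of proteins that assemble with the channels were taken as a list of 14 genes, of which 10 were tested. With quisinostat 3 were called higher (ADAM22, LRRC38 and ABCC8), with romidepsin 1 (LRRC38) and with mivebresib 1 (ADAM22), and the median log2 FC of the 10 was 0.65 with quisinostat. Of all tested genes, 11.2%, 3.77% and 3.96% were called higher with the 3 drugs in that order. ADAM22, which anchors KCNA channels at axons, had 45 and 44 counts in the control, 122 and 123 with romidepsin, 432 and 536 with quisinostat and 184 and 206 with mivebresib, and its groups did not overlap. LRRC38 is a gamma subunit of BK channels, at 0 and 2 counts in the control and 24 and 33 with quisinostat. ABCC8, the sulfonylurea receptor that pairs with KCNJ11, stood at 3 and 1 and 15 and 18 counts (log2 FC 2.79 ± 0.66 SE, adjusted p = 0.00725). The scaffold DLG4 was the 1 gene of the list called lower with mivebresib (log2 FC -1.70 ± 0.20 SE, adjusted p = 0.000243), at 59 and 98 counts against 273 and 242. Of all tested genes, 4.36% were called lower with mivebresib. LRRC26 had 143 and 9 counts in the 2 control libraries, a wide gap within 1 group.

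The HCN genes, whose cation channels open on hyperpolarization and share the fold of potassium channels, rose with quisinostat in 4 of 4 cases, 3 of them called, with a median log2 FC of 1.74. Of all tested genes, 28% rose and 11.2% were called higher with quisinostat. HCN2 had 360 and 312 counts in the control and 1142 and 1262 with quisinostat (log2 FC 1.66 ± 0.12 SE, adjusted p = 1.16e-05). Of 20 pump and cotransporter genes, which build or use the potassium gradient, 14 were tested. With quisinostat 5 were called higher (median log2 FC of the 14 of 0.72), with mivebresib 2 and with romidepsin 1, where 11.2%, 3.96% and 3.77% of all tested genes were. ATP1B2, a beta subunit of the sodium pump, had 23 and 28 counts in the control, 39 and 27 with romidepsin, 191 and 224 with quisinostat and 75 and 85 with mivebresib (log2 FC 2.84 ± 0.23 SE, adjusted p = 2.18e-05 with quisinostat). The pump regulator FXYD6 had 24 and 20 counts in the control and 210 and 238 with quisinostat (log2 FC 3.16 ± 0.23 SE, adjusted p = 1.31e-05).

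Some counts are uncertain by position. KCNE1 and KCNE1B, and KCNJ12 and KCNJ18, are near-identical copies whose reads may be split, and none of the 4 was called. KCNMB3 shares 3403 exonic bases with PIK3CA on the opposite strand, KCNAB2 111 with NPHP4 and KCNH3 14 with MCRS1, and KCNJ14 shares 350 with GRWD1 on the same strand. By GENCODE 29 on GRCh38, KCNH2 lies at chr7:150944961-150978315, KCNC1 at chr11:17734774-17856804, KCNJ10 at chr1:159998651-160070483, KCNN3 at chr1:154697455-154870280, KCNK12 at chr2:47516581-47570939, KCNK1 at chr1:233614004-233672512 and KCNJ13 at chr2:232766464-232776568, each spanning the gene's exons and introns.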

How the data were processed

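Paired reads of 150 bp from strand-specific libraries were used by the authors to make the deposited tables. The deposited counts are unnormalized whole numbers per gene symbol. The genome was hg38 per the submitters' processing notes, and the aligner, the counter, the annotation and the strand setting of the counting are not given in the sources used here. The deposited log10 table equals log10(CPM + 1) of the counts, with CPM by library total alone (largest difference 4.44e-16), and served only for that check. The deposited quantile-normalized table was not used. The study compared groups with BioJupies (limma).

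Here the counts were tested with edgeR 4.0.16 (R 4.3.3): filterByExpr left 15085 of 35238 rows, TMM factors scaled the libraries, and 1 quasi-likelihood fit over all 8 libraries gave each comparison, with Benjamini-Hochberg adjustment over all tested genes. The biological coefficient of variation was 0.0938. The SE is the log2 fold change over the root of F, and 95% intervals come from the quasi-likelihood t. All adjusted p-values in the text are from these fits. Levels in TPM used GENCODE 29 exonic lengths, and promoters came from RefSeq (GRCh38.p14). Counting intervals and floors cover counting error only. The replicate numbers do not pair the libraries: deviations of same-numbered libraries correlated at -0.162 to 0.158.

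Named with values were genes called with any drug against the control, the 10 of highest control TPM, genes called between quisinostat and romidepsin, and the most abundant member of any tested subfamily without a named gene. KCNC4, KCNK6 and KCNQ5 fall outside this rule and were chosen after their values were seen. Some genes are counted in totals but not reported here by name. The members, the gene lists and the rules were chosen with earlier results of these data known. Alternatives were DESeq2 1.42.0, limma-voom (limma 3.58.1), other scalings, filters and thresholds, a fit of the 4 libraries compared, a replicate block and each library left out. The scripts were tested on simulated data. Tables and figures were made with Python 3.11.15, pandas 2.3.3, numpy 2.4.6 and matplotlib 3.10.9.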

Additional observations from a re-analysis of the deposited data

How the results depend on the processing

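By adjusted p alone, 1 potassium channel gene was lower with romidepsin (15.8% of all tested genes) and 12 were lower with mivebresib (24.1%). By the same rule 37 were higher (21%) and 3 lower (14.6%) with quisinostat than with romidepsin. With a log2 limit of 1 in place of 1.5, 8 were lower with mivebresib. The share over all tested genes was not counted at that limit, so the 8 cannot be set against it. A minimum mean of 1 CPM left 38 genes, of which 20 were called higher with quisinostat and 12 higher with quisinostat than with romidepsin, and gave a median log2 fold change of 1.93 with quisinostat. Upper-quartile factors gave medians of 0.70 with romidepsin and 1.49 with quisinostat, and scaling by library size alone gave 1.56 with quisinostat. The replicate block gave 18 genes called higher with romidepsin against 19 without it, left the counts called with quisinostat (32) and mivebresib (8 higher, 3 lower) and between the HDAC inhibitors (22) as they were, and gave medians of 0.62, 1.34 and 0.13. The numbers do not pair the libraries, so this fit is given for completeness.

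Leaving out each library in turn gave 15 to 18 genes called higher with romidepsin, 30 to 34 with quisinostat and 8 to 9 with mivebresib, 3 to 4 lower with mivebresib, and 16 to 23 higher with quisinostat than with romidepsin. The medians ranged from 0.52 to 0.68 with romidepsin, 1.28 to 1.77 with quisinostat and -0.00334 to 0.21 with mivebresib, the last reversed in sign without the second mivebresib library (-0.00334). Single-gene differences were followed for the genes named by the rule, against the control and between the HDAC inhibitors, leaving aside the fit without a filter. Of 121 such differences past the adjusted p, 86 kept their side of the threshold under every alternative that tested the gene. Another 18 lost it under an alternative with all libraries, 17 lost it when a library was left out and not otherwise, and 0 changed sign. The causes were not tested. With 2 libraries a group, genes below about 10 counts carry wide errors, and 31 of the 97 genes were too low to test.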
